A study of Mus musculus with 10 samples.

Results

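The 45 genes described here encode the enzymes of glycolysis, of pyruvate entry into mitochondria and of the citric acid cycle in E14, an established line of mouse embryonic stem cells. They were chosen by gene symbol, with the isoenzymes (different genes for the same reaction) of each step kept side by side. GENCODE vM21 names gave these symbols to 46 of the 55487 Ensembl gene IDs in the tables. Aldoa had a second ID, ENSMUSG00000114515, with 6, 8 and 6 estimated counts in replicates 1, 2 and 3, and the ID with more counts was used. Of the 45 genes, 22 were grouped under glycolysis including lactate dehydrogenase, 8 under the pyruvate dehydrogenase complex and its kinases, and 15 under the citric acid cycle. The citric acid cycle group includes Aco1, Idh1 and Mdh1, which encode cytosolic enzymes rather than mitochondrial ones.

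The series holds 10 samples, of which 7 map R-loops (RNA-DNA hybrids) and are not analysed here. The other 3 are RNA-seq libraries of E14 cells, replicates 1 to 3, with no genotype change or treatment named, grown in serum-containing medium with LIF, a GSK inhibitor and a MEK1/2 inhibitor. Their RNA was treated with DNase and depleted of ribosomal RNA before strand-specific library preparation. The labels do not say whether the replicates are separate cultures, so the spread and the p-values below measure only the differences between these libraries, which may be technical.

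Glycolysis splits glucose into pyruvate in the cytosol and yields ATP and NADH. Lactate dehydrogenase returns the NADH to NAD+ by making lactate, whereas pyruvate dehydrogenase turns pyruvate into acetyl-CoA for the citric acid cycle in mitochondria. Pyruvate dehydrogenase kinases switch the complex off by phosphorylation. Mouse embryonic stem cells are known for rapid glycolysis alongside active mitochondrial respiration.

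The 3 libraries held 11420425, 6467405 and 5787357 estimated counts on genes. All 6 pluripotent markers (Pou5f1, Nanog, Sox2 and others) had a mean TPM of at least 1, with means from 30.5 to 183, and their summed level was 439 to 600 TPM. TPM, the unit of these levels, corrects counts for transcript length and library size. None of the 9 markers of differentiated cells reached 1, nor did any of 4 muscle, 3 liver and 4 testis markers, and the 4 testis markers were at 0 counts. Some differentiated markers were still detected, with 122, 67 and 44 counts for Sox1 (mean 0.73 TPM) and 47, 19 and 12 for Gata4. Of 8 fibroblast markers, 1 reached 1 TPM, Thy1 at 2.50 ± 1.15 TPM (SD, n = 3), while Col3a1, Postn, Lum, Dcn and Acta2 were at 0 counts. The summed fibroblast level was 1.24 to 3.37 TPM.

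Most of the pathway stood at 1 TPM or more, called expressed below, and its most abundant transcripts belonged to glycolysis. A mean of at least 1 TPM was reached by 39 of the 45 genes, where 44% of protein-coding genes and 19.8% of all genes did. Protein-coding genes here and below are the nuclear ones, since those of the mitochondrial genome were left out of that group. The 39 comprised 18 of 22 glycolytic genes, 6 of 8 genes of the pyruvate dehydrogenase group and 15 of 15 citric acid cycle genes. The 6 genes below 1 TPM in the deposited values were Pgk2, Pgam2, Pklr, Ldhc, Pdk2 and Pdk4, each 1 of several isoenzymes of its step. A mean of at least 100 TPM was reached by 10 members, all of glycolysis, where 0.974% of protein-coding genes did. Together the 45 genes took 1.45% ± 0.025 of the counts (SD, n = 3). All nuclear protein-coding genes took 75.4%, 75.1% and 68.9% of the counts in replicates 1, 2 and 3. Their summed TPM was only 194717, 161626 and 148211, against 1e+06 over all genes. With TPM rescaled without genes of effective length (the length that scales counts) under 100 nucleotides, 43 of the 45 members reached a mean of 1.

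The median log2(TPM + 1) was 5.58 ± 0.41 over the glycolytic genes, 3.48 ± 0.36 over the pyruvate dehydrogenase group and 4.87 ± 0.34 over the citric acid cycle (SD, n = 3). The same median was 0.53 ± 0.11 over all nuclear protein-coding genes and 1.56 ± 0.24 over those with a count. The glycolytic median exceeded that of the citric acid cycle by 0.71 ± 0.07 on this scale, in 3 of 3 replicates. An exact two-sided sign-flip permutation test gave p = 0.25, the smallest that 3 replicates allow, so no pairwise comparison here can pass 0.05. The size of this gap depended on the summary, since it was 2.18 when only genes of at least 1 TPM were counted and 0.14 when means replaced medians. Within glycolysis the levels ran from a gene with no counts to the 10th most abundant of the nuclear protein-coding genes.

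**Figure D1:**
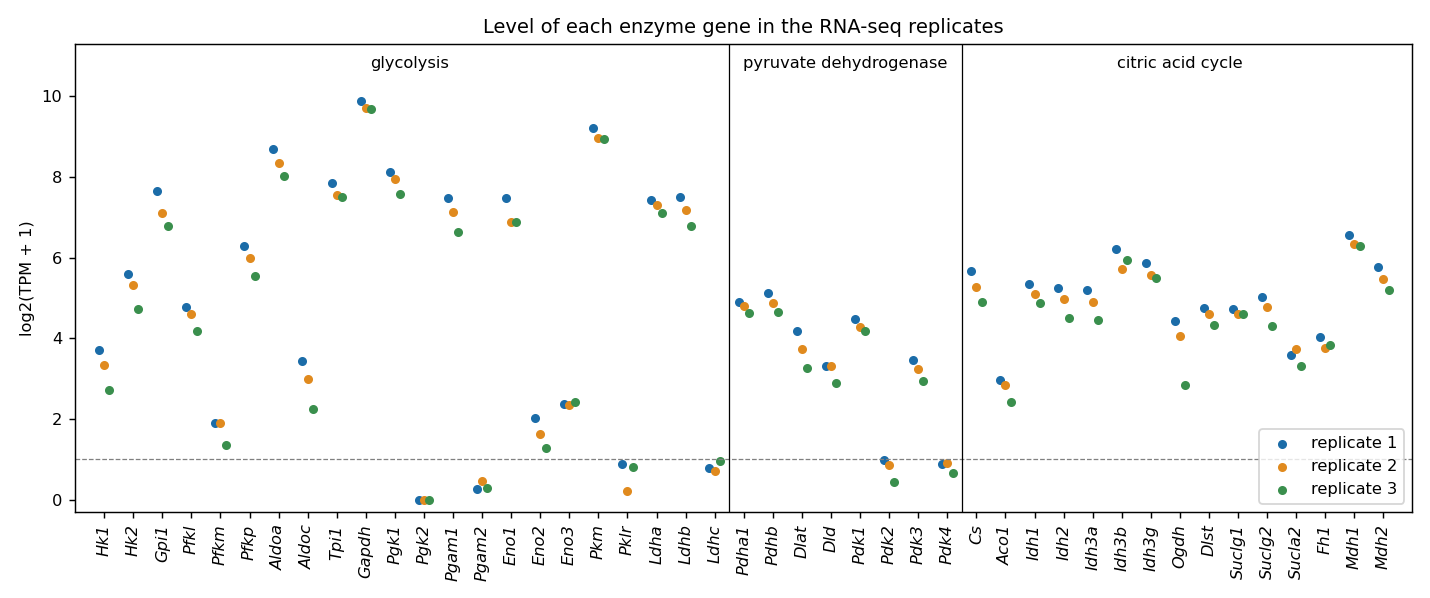
Level of each of the 45 genes as log2(TPM + 1), 1 point for each of the 3 RNA-seq replicates, grouped into glycolysis, pyruvate dehydrogenase and citric acid cycle. The 10 genes above 100 TPM all lie in glycolysis, and all 15 citric acid cycle genes lie between 1 and 100 TPM. The dashed line marks 1 TPM.

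Glucose is trapped in the cell by hexokinase, which phosphorylates it. Hk2, the inducible hexokinase, stood at 47.4, 38.8 and 25.4 TPM in replicates 1, 2 and 3. Hk1, the widespread form, stood at 12.1, 9.04 and 5.55 TPM. The lowest Hk2 value lay above the highest Hk1 value, and Hk2 made up 80.9% ± 1.22 of the hexokinase TPM (SD, n = 3). The difference in log2(TPM + 1) was 1.96 ± 0.07, with Hk2 higher in 3 of 3 replicates (exact sign-flip permutation p = 0.25, 0.274 after Benjamini-Hochberg adjustment over 23 isoenzyme pairs). Gpi1, which converts glucose-6-phosphate to fructose-6-phosphate, was more abundant than the hexokinases at 199, 137 and 109 TPM.

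Phosphofructokinase, the main control point of the pathway, has 3 subunit genes. Pfkp, named for platelets, gave 77.3, 62.5 and 46.0 TPM. Pfkl, the liver type, gave 26.5, 23.5 and 17.1 TPM. The muscle type Pfkm was lowest at 2.74, 2.72 and 1.55 TPM, so the order Pfkp, Pfkl, Pfkm was the same in every replicate and the ranges did not overlap. Pfkp held 71.4% ± 1.05 of the summed TPM, Pfkl 25.9% and Pfkm 2.68%. The step from Pfkl to Pfkp was 1.42 ± 0.08 in log2(TPM + 1), in 3 of 3 replicates (adjusted exact permutation p = 0.274).

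Aldolase cleaves fructose bisphosphate into a pair of triose phosphates. Aldoa, the form typical of muscle and of growing cells, stood at 416, 326 and 262 TPM. The brain form Aldoc stood at 9.80, 6.93 and 3.73 TPM, so Aldoa carried 98.1% ± 0.47 of the step. Tpi1 interconverts the triose phosphates and has no isoenzyme here, and it gave 231, 186 and 180 TPM. Gapdh, which makes the first NADH of the pathway, was the most abundant of the 45 genes at 945, 834 and 828 TPM. Its mean of 869 ± 65.8 TPM ranked 10 among 21961 nuclear protein-coding genes, with mitochondrial genome transcripts not ranked.

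Phosphoglycerate kinase makes the first ATP of the pay-off phase. Pgk1, its X-linked general form, gave 280, 246 and 192 TPM, from 12729, 7827 and 6105 estimated counts. Pgk2, the intronless form of sperm, had 0 counts in each library, which allows up to 3 counts in each. Against that floor of 3 counts per library, Pgk1 was at least 1810-fold higher in every replicate on the TPM scale. Phosphoglycerate mutase showed the same one-sided pattern, with Pgam1 at 179, 140 and 98.6 TPM. Its muscle form Pgam2 rested on 4, 5 and 3 counts.

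Enolase makes phosphoenolpyruvate. Eno1, the general enolase, stood at 178, 116 and 117 TPM and held 95.4% ± 0.57 of the TPM of the 3 enolase genes listed. This share leaves out Eno1b, a near-identical protein-coding copy of Eno1, which stood higher at 372, 297 and 287 TPM. The neuronal form Eno2 stood at 3.10, 2.07 and 1.41 TPM, and the muscle form Eno3 at 4.16, 4.05 and 4.39 TPM. Eno3 was above Eno2 in 3 of 3 replicates by 0.74 ± 0.42 in log2(TPM + 1), but in CPM, counts scaled to library size with no account of length, the mean gap was 0.06 and Eno3 was above in 1 of 3. Pyruvate kinase closes the pathway, with Pkm at 589, 501 and 491 TPM, where its M1 and M2 splice forms are summed. Pklr, the liver and red cell gene, had 27, 8 and 15 counts and stayed at or below 0.86 TPM.

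In the deposited TPM, lactate dehydrogenase was the 1 glycolytic step with a pair of isoenzymes whose ranges overlapped. Ldha, the M subunit prominent in muscle, stood at 171, 158 and 137 TPM. Ldhb, the H subunit prominent in heart, stood at 180, 144 and 109 TPM. The ranges overlapped, and Ldha was higher in 2 of 3 replicates with a log2(TPM + 1) difference of 0.13 ± 0.20 (exact permutation p = 0.50, adjusted 0.523). Ldha held 52.1% ± 3.43 of the step and Ldhb 47.7% ± 3.52. The sperm form Ldhc had 14, 9 and 12 counts and held 0.267%.

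This near-equality belonged to the length scale, and the counts gave another picture. Ldha stood at 579, 664 and 641 CPM, and Ldhb at 221, 225 and 207. On the CPM scale the ranges did not overlap, the difference in log2(CPM + 1) was 1.52 ± 0.12 and Ldha held 74.1% of the step. The lengths behind the deposited TPM differed, with mean transcript lengths of 1565, 1582 and 1561 nucleotides for Ldha and 654, 680 and 712 for Ldhb in replicates 1, 2 and 3. GENCODE vM21 lists 15 Ldha transcripts of 399 to 1815 nucleotides and 4 Ldhb transcripts of 437 to 1304. With the longest annotated transcript as the length of each gene, Ldha was at 367 ± 48.3 TPM and Ldhb at 178 ± 32.6, and the log2 difference was 1.05. Which transcripts the reads of Ldhb came from was not tested.

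**Figure D2:**
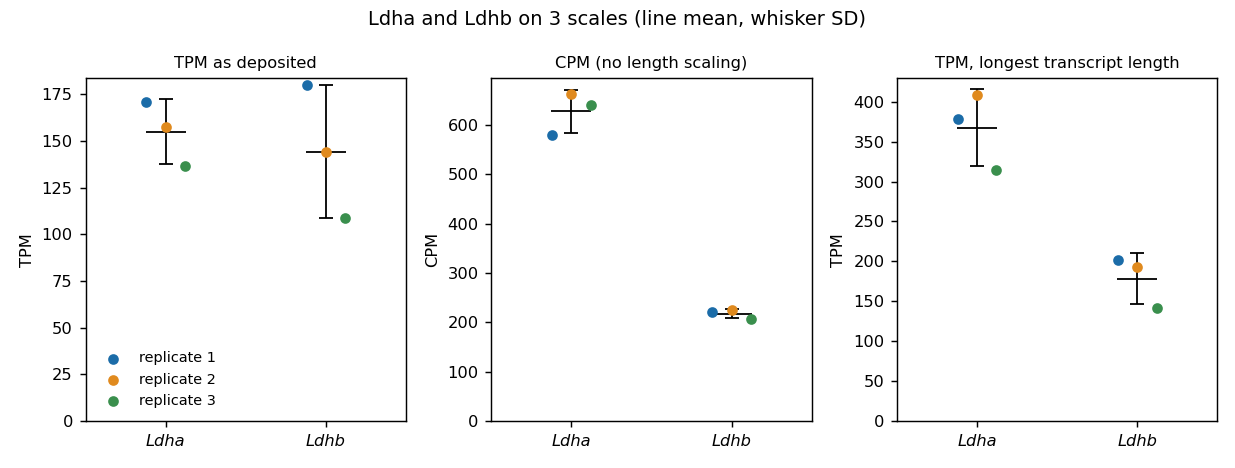
Ldha and Ldhb in each replicate on 3 scales: deposited TPM, CPM, and TPM recomputed with the longest annotated transcript. Points are replicates, lines the mean and whiskers the SD. The genes overlap in deposited TPM (Ldha 137 to 171, Ldhb 109 to 180) and are apart in CPM (579 to 664 against 207 to 225).

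Over the pathway, 20 of the 23 isoenzyme pairs had TPM ranges that did not overlap. Among all pairs of nuclear protein-coding genes with a count, 82.8% did not overlap, so this share is near the background. The 3 overlapping pairs were Ldha with Ldhb, Pdk4 with Pdk2 and Idh1 with Idh2. For 21 pairs the gene of higher mean led in 3 of 3 replicates, and for these the sign-flip p was necessarily 0.25 (0.274 adjusted). The higher gene was picked from the same replicates, and the matching share over all gene pairs was not computed.

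**Figure D3:**
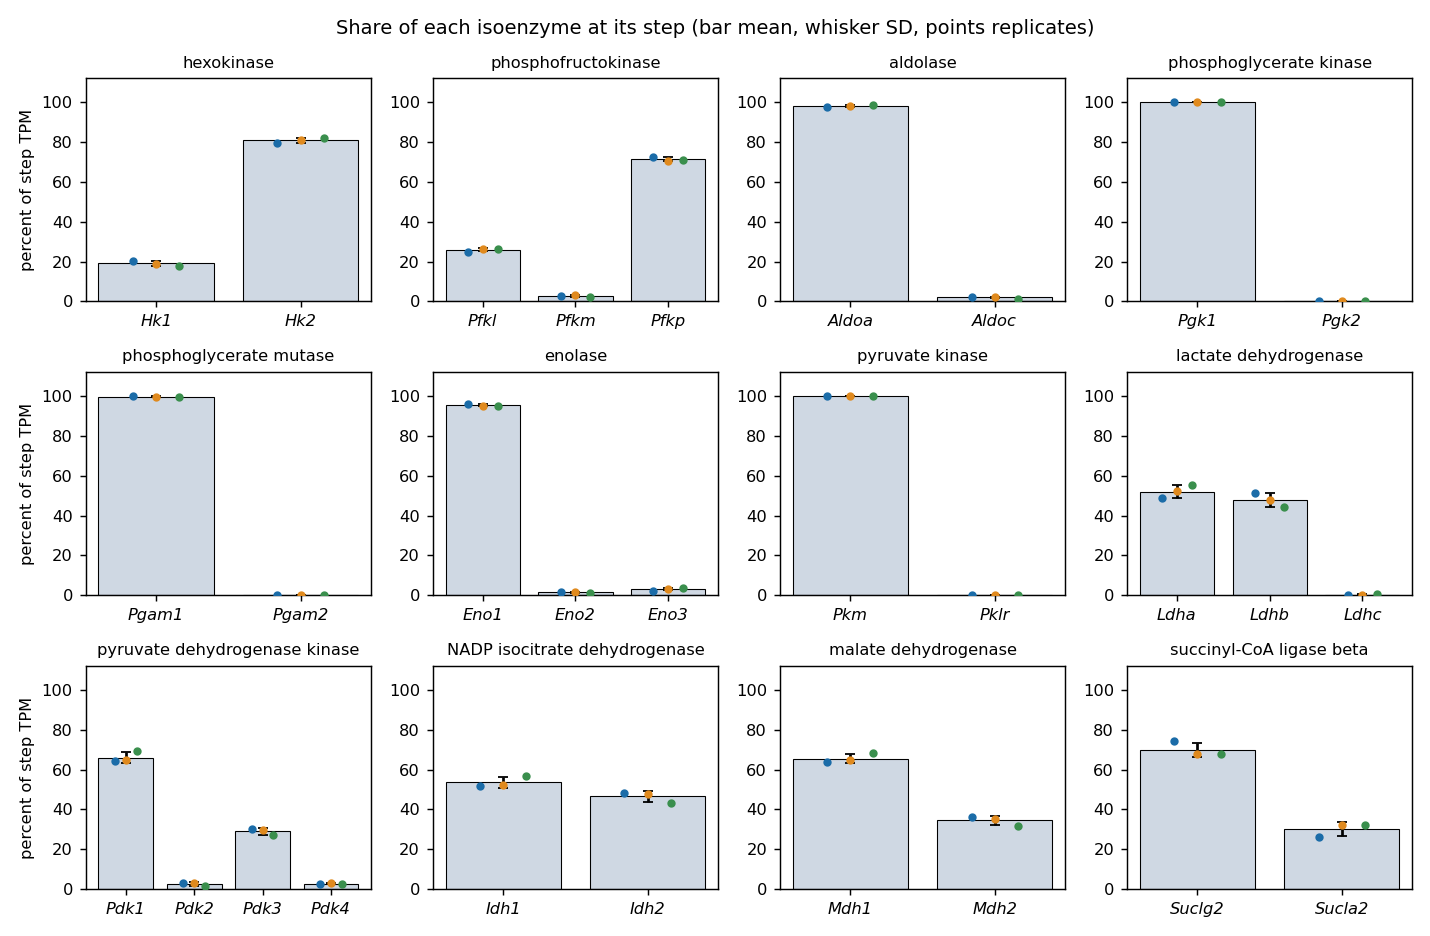
Share of each step's summed TPM held by each isoenzyme, with bars for the mean of 3 replicates, whiskers for the SD and points for the replicates. Aldolase, phosphoglycerate kinase, phosphoglycerate mutase, enolase and pyruvate kinase are each held above 95% by 1 gene, while Ldha and Ldhb hold 52.1% and 47.7%. The enolase share leaves out Eno1b, a near-identical copy of Eno1 at 372, 297 and 287 TPM.

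Summed over isoenzymes, the glycolytic steps formed a broad ladder. The totals were 869 ± 65.8 TPM for glyceraldehyde-3-phosphate dehydrogenase, 528 ± 54.3 for pyruvate kinase, 342 ± 80.6 for aldolase, 300.2 ± 52.6 for lactate dehydrogenase and 239 ± 44.7 for phosphoglycerate kinase. Then came triosephosphate isomerase at 199 ± 27.4, glucose-6-phosphate isomerase at 148 ± 46.5, enolase at 143 ± 36.4, phosphoglycerate mutase at 140 ± 40.2, phosphofructokinase at 86.6 ± 21.0 and hexokinase at 46.1 ± 14.4. Neighbours from aldolase down to phosphofructokinase overlapped in range. The gaps below glyceraldehyde-3-phosphate dehydrogenase, below pyruvate kinase and above hexokinase did not.

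Near-identical copies elsewhere in the genome bear on the values of several steps. A copy here is another annotated gene whose transcript matched a member's at 90% identity or more over at least 50% of either length. Of the 45 genes, 18 had such a copy and 14 had a copy holding counts, with 289 copies in all. Matches at a member's own locus were left out, among them Gm49759 at the Pkm locus. Gm49759 was identical to Pkm over 455 aligned nucleotides and had 866, 464 and 333 counts in replicates 1, 2 and 3. The reads that fit several copies are divided by estimation. A fractional count was found for 14 members, not all the same genes, since Dlst had a fractional count and no copy. Gapdh had 216 copies, of which 168 held counts, and these took 17.0% ± 1.97 of the summed counts. Among them Gm10359, identical over its aligned length, had 2563, 232 and 418 counts. With the copies added, Gapdh reached 1058 ± 117 TPM.

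Enolase was affected most. Eno1b, a protein-coding gene on chromosome 18, matched Eno1 at 99.5% identity over 1736 nucleotides. It received 16247, 9029 and 8779 counts, more than the 8769, 3946 and 4063 of Eno1 in every replicate. The copies of Eno1 together held 68.2% ± 2.32 of the summed counts. Eno1 with its copies reached 468 ± 85.2 TPM, and the enolase step then ranked 3 among the glycolytic steps at 475 TPM, in place of 8. The division of reads between Eno1 and Eno1b is therefore uncertain.

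For the other members with copies the amounts were smaller. Copies held 5.86% of the summed counts for Pdhb, 4.74% for Pgk1, 4.55% for Suclg2, 2.17% for Pgam1, 1.92% for Gpi1 and 1.62% for Ldha. Suclg1 had a nominal 19.7%, all from Snhg14, whose match is a 165-nucleotide alignment at 90.3% identity, and Suclg1 itself had whole counts only. In all, copies held over 1% of the summed counts for 9 members.

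**Figure D4:**
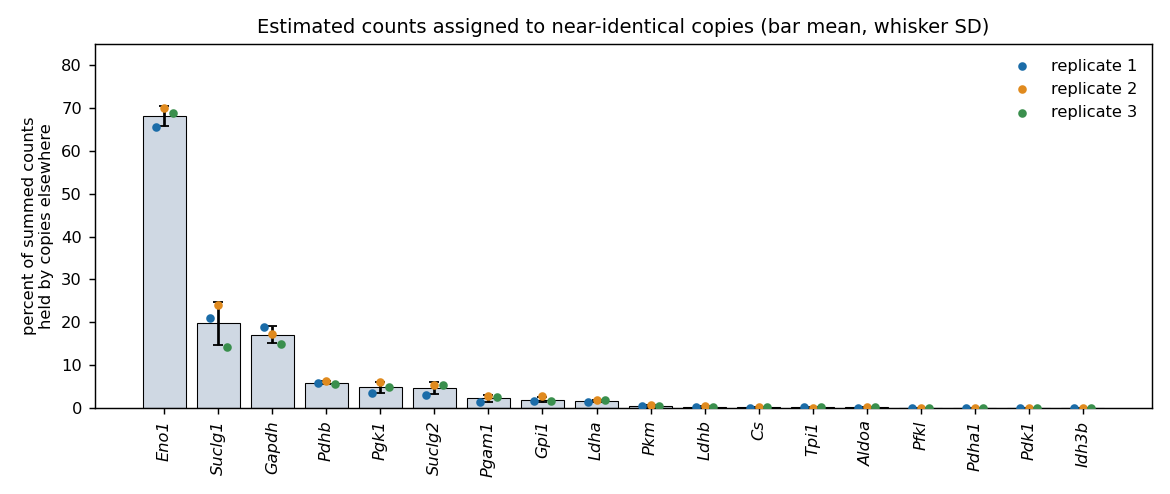
Percent of the summed counts (member plus near-identical copies) that fell on the copies, for the 18 members with a copy. Bars give the mean, whiskers the SD and points the 3 replicates. Eno1 stands apart at 68.2%, followed by Suclg1 at 19.7% from 1 short match and Gapdh at 17.0%.

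The promoters of lactate dehydrogenase and phosphoglycerate kinase genes are shown because these families place an abundant gene beside one at or near 0. Each line gives 190 bases, 5′ to 3′ on the gene's strand, from the upstream end of a RefSeq window (GRCm38.p6) running from 250 bases before to 50 after the start. Capitals mark CG dinucleotides. The regions are chr7:46845554-46845743 (plus strand) for Ldha, chr6:142508018-142508207 (minus) for Ldhb, chr7:46861013-46861202 (plus) for Ldhc, chrX:106186850-106187039 (plus) for Pgk1 and chr17:40208670-40208859 (minus) for Pgk2. None overlaps an annotated exon.
Ldha: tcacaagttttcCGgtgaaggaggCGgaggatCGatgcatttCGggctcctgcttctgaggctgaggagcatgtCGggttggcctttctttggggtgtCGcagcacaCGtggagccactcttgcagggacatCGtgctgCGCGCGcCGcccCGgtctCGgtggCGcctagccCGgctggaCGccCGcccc
Ldhb: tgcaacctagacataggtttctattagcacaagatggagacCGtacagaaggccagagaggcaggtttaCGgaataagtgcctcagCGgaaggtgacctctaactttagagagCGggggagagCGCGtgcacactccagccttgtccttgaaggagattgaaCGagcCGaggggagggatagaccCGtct
Ldhc: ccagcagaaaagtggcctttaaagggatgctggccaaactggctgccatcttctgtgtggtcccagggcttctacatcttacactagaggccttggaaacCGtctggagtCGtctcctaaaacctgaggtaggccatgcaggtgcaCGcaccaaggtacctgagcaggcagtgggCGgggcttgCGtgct
Pgk1: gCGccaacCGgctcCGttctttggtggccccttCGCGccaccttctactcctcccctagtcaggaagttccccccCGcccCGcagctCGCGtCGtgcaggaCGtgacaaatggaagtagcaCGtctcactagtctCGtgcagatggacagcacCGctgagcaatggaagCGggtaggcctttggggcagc
Pgk2: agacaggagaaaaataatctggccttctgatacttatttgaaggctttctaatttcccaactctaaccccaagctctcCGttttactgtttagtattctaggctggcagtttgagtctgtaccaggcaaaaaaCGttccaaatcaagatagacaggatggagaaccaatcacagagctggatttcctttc

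The shown bases held 18 CG in Ldha, 9 in Ldhb, 15 in Pgk1, 5 in Ldhc and 2 in Pgk2. Over the whole of these windows the observed to expected CpG ratio was 0.88 for Ldha, 0.70 for Ldhb and 0.72 for Pgk1, and it was 0.42 for Ldhc and 0.29 for Pgk2. A second window of Ldha, not shown, had a ratio of 0.54, and a second one of Ldhc had 0.13. The other 3 genes have 1 window each. Over all members the split was near that of all genes. A ratio above 0.6 was found in 40 of 56 windows (71.4%) of the members of at least 1 TPM, and in 73.9% of windows of all genes at that level. For the members under 1 TPM it was found in 2 of 9 windows (22.2%, both of Pdk2), where all genes under 1 TPM gave 22.1%. RefSeq windows matched 44 of the 45 genes, the exception being Idh3a.

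Short motifs were counted in the same 300-base windows on either strand. ACGTG, the core of the hypoxia response element and also contained in the E-box CACGTG, was present in 23 of 65 member windows (35.4%), in 26.4% of windows of genes of at least 1 TPM and in 19.6% of all windows. Windows are not separate genes, since Ogdh alone has 6 of the 65, each with ACGTG and CCAAT. By gene, ACGTG was in any window of 16 of 44 members. The same held for 2416 of 7854 genes of at least 1 TPM, and for 15 of the 38 members at that level. GGGCGG, the GC box, was present in 52.3% of member windows, 64.9% of windows of genes of at least 1 TPM and 35.7% of all. For the members of at least 1 TPM alone its share was 58.9%, below that of all genes at that level. CCAAT was present in 49.2%, 39.5% and 37.4% of the same 3 sets, and TATAAA in 3.08%, 6.38% and 13.6%. By gene, CCAAT was in 24 of 44 members and in 3546 of 7854 genes of at least 1 TPM. A match is a description of the letters only.

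The 4 pyruvate dehydrogenase subunit genes among the members were expressed, at levels below those of Pkm and Ldha, whose enzymes make and use its substrate. The E1 subunits were Pdha1 at 28.7, 26.9 and 23.9 TPM and Pdhb at 33.9, 28.2 and 24.3 TPM, with overlapping ranges. Dlat, the E2 acetyltransferase, gave 17.1, 12.2 and 8.62 TPM. Dld, the E3 dehydrogenase shared with 2-oxoglutarate dehydrogenase, gave 8.95, 8.93 and 6.38 TPM. The E2 and E3 ranges overlapped narrowly, and both lay below the E1 subunits.

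Among the kinases that switch the complex off, Pdk1 and Pdk3 had mean levels above 1 TPM and Pdk2 and Pdk4 lay just under it. Pdk1, a known hypoxia target, stood at 21.3, 18.6 and 17.1 TPM. Pdk3 stood at 9.99, 8.51 and 6.70 TPM, and the difference of 1.10 ± 0.12 in log2(TPM + 1) held in 3 of 3 replicates (adjusted exact permutation p = 0.274). Pdk1 held 66.0% ± 2.70 of the kinase TPM and Pdk3 28.9% ± 1.63. With the longest annotated transcript as the length, the Pdk1 share was 48.5% and the log2 difference 0.11, so the size of the gap depended on the transcript length used, while Pdk1 stayed above Pdk3 in 3 of 3 replicates. Pdk4, the fasting-induced kinase, gave 0.84, 0.88 and 0.59 TPM, and the widespread Pdk2 gave 0.98, 0.82 and 0.35. These last ranges overlapped, and both genes were detected, with 76, 56 and 27 counts for Pdk4 and 56, 20 and 8 for Pdk2.

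Each of the 15 citric acid cycle genes was above 1 TPM and 14 were above 10. Cs, which condenses acetyl-CoA with oxaloacetate, gave 49.7, 38.0 and 28.7 TPM. Aco1, the cytosolic aconitase that doubles as an iron sensor, was the lowest of the 15 at 6.87, 6.14 and 4.32 TPM.

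Isocitrate dehydrogenase exists as NADP-dependent forms and as an NAD-dependent enzyme of the cycle with several kinds of subunit. Idh3b and Idh3g, its regulatory subunits, gave 73.9, 51.9 and 60.4 TPM and 57.6, 46.1 and 44.2 TPM. The catalytic subunit Idh3a was lower in every replicate, at 35.5, 29.0 and 20.9 TPM. Of the NADP-dependent forms, cytosolic Idh1 gave 39.6, 33.3 and 28.4 TPM and mitochondrial Idh2 gave 36.7, 30.6 and 21.8. Idh1 was above Idh2 in 3 of 3 replicates by 0.20 ± 0.15 in log2(TPM + 1), yet the ranges overlapped (adjusted exact permutation p = 0.274).

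Ogdh, the E1 of 2-oxoglutarate dehydrogenase, stood at 20.4, 15.6 and 6.19 TPM, with replicate 3 below the others. Dlst, its E2, gave 26.0, 23.2 and 19.0 TPM. Succinyl-CoA ligase pairs Suclg1 with a GDP-forming (Suclg2) or ADP-forming (Sucla2) partner. Suclg1 gave 25.5, 23.4 and 23.3 TPM, Suclg2 gave 31.6, 26.3 and 18.8, and Sucla2 gave 11.1, 12.4 and 8.98. Suclg2 held 69.9% ± 3.61 of the beta subunit TPM and was 1.15 ± 0.25 higher in log2(TPM + 1), in 3 of 3 replicates.

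Fumarase, encoded by Fh1, stood at 15.3, 12.6 and 13.3 TPM. The malate dehydrogenases regenerate oxaloacetate, and cytosolic Mdh1 was the most abundant of the 15 genes at 93.0, 80.0 and 76.8 TPM. Mitochondrial Mdh2 stood at 53.1, 43.7 and 35.9. Mdh1 held 65.5% ± 2.36 of the pair and led by 0.91 ± 0.15 in log2(TPM + 1). The cytosolic gene was the higher one for both malate and NADP isocitrate dehydrogenase.

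Of the members, none was called as varying between replicates beyond the trend of genes with like abundance. edgeR's goodness-of-fit test called 0 of the 40 members in the fit at an adjusted p of 0.05, where it called 1.84% of the 12577 genes tested. With so low a background share, 0 of 40 does not set the members apart from other genes. At an unadjusted 0.05 it called 1 member, where 6.96% of genes passed. This was Ogdh, with TMM-scaled CPM (library sizes adjusted by edgeR's TMM factors) of 160, 157 and 80.4 and an edgeR adjusted p of 0.195. With DESeq2 size factors the test again called 0 members, and 1 at the unadjusted level. Pgk2, Pgam2, Pklr, Ldhc and Pdk2 had too few counts to enter.

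In TPM most members were lowest in replicate 3, and in TMM-scaled CPM they were not. Among the 39 expressed members the lowest TPM fell in replicate 3 for 35 (79.4% of expressed protein-coding genes), in replicate 2 for 4 (17.1%) and in replicate 1 for 0 (3.44%). For TMM-scaled CPM the lowest library was replicate 1 for 19 of 40 members (33.5% of genes), replicate 2 for 4 (26.1%) and replicate 3 for 17 (40.4%). The highest library was replicate 1 for 10 (33.6%), replicate 2 for 14 (25.8%) and replicate 3 for 16 (40.6%). Fewer members were lowest in replicate 2 than among all genes, and this difference was not tested. The summed TPM of the members was 4252, 3517 and 3128, while their share of counts was 1.47%, 1.46% and 1.42%. The median coefficient of variation in TPM was 19.6% over the expressed members and 23.8% over expressed protein-coding genes, from 4.13% for Eno3 to 51.5% for Ogdh.

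Within the members, deviations moved with gene length. The Spearman rho between length and the deviation from the 3-replicate mean, over the 40 genes, was 0.34, 0.62 and -0.55 for replicates 1, 2 and 3. Over all genes tested it was 0.40, 0.17 and -0.40. These are descriptions across genes, which share libraries and are not independent replicates. Ogdh and Hk1, both long, were low in replicate 3, whereas the short Eno3 was high there at 13.4 TMM-scaled CPM against 8.63 and 9.04. The part of length in each gene's value was not tested.

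**Figure D5:**
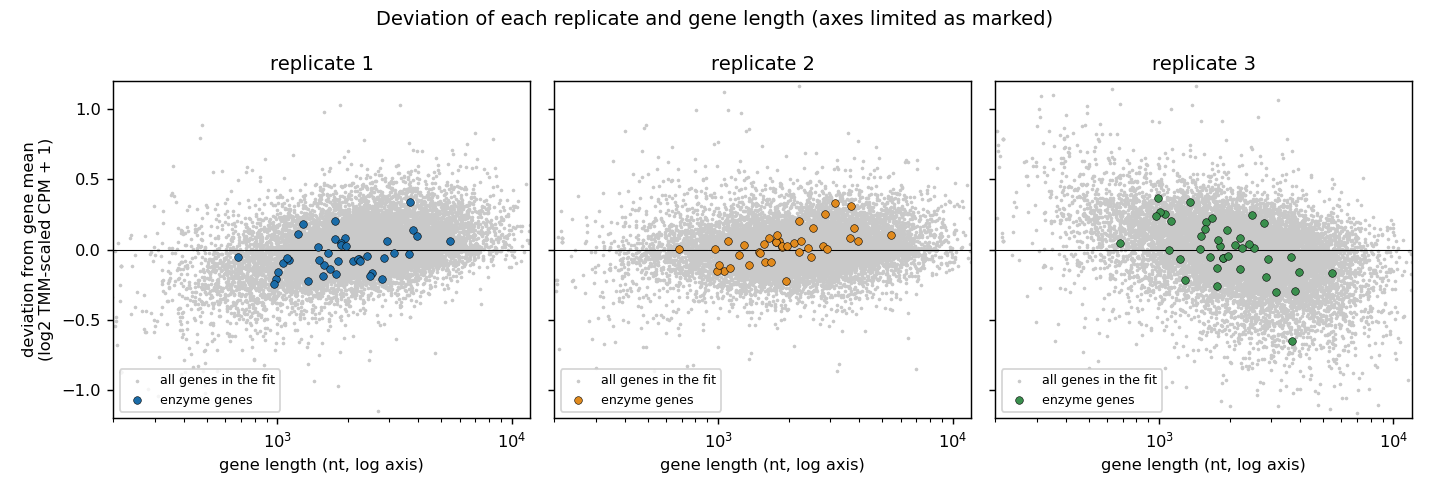
Deviation of each of the 40 members from its 3-replicate mean (log2 of TMM-scaled CPM + 1) against its length in nucleotides (log axis), by replicate, over all genes in the fit in grey. Longer members lie lower in replicate 3 (rho -0.55) and higher in replicate 2 (rho 0.62).

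The wider list of 55 genes places the members among neighbouring reactions. A mean of at least 1 TPM was reached by 42 of the 55. It was reached by 7 of 7 further citric acid cycle genes, 7 of 7 of the pentose phosphate pathway, 6 of 7 of pyruvate entry, 6 of 8 of the shuttles and malic enzymes, 6 of 7 regulators, 7 of 12 on the glycolysis side and 3 of 7 of gluconeogenesis. The goodness-of-fit test in edgeR called 0 of the 44 in the fit, and 1 at an unadjusted 0.05.

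The succinate dehydrogenase subunits, which join the cycle to the respiratory chain, ran from Sdha at 21.5 ± 2.17 to Sdhb at 35.3 ± 4.77 TPM. Tkt, the transketolase that links the pentose phosphate pathway back to glycolysis, was at 91.5 ± 27.8 TPM and was the most abundant of the 55. Got2, the mitochondrial aminotransferase of the malate-aspartate shuttle, was at 55.5 ± 16.6 TPM, and Acly, which splits exported citrate, at 39.5 ± 7.88. The pyruvate carrier subunits Mpc1 and Mpc2 stood at 7.66 ± 1.27 and 3.84 ± 0.91 TPM.

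Among gluconeogenic genes, Pck2, the mitochondrial phosphoenolpyruvate carboxykinase, was at 17.8 ± 4.14 TPM, while the cytosolic Pck1 was at 0.003 on average. Fbp1, the liver fructose bisphosphatase, had 0 counts, as did Hk3 and Me3. Tigar, a phosphatase that lowers fructose-2,6-bisphosphate, was at 11.7 ± 0.59 TPM. It was above each Pfkfb gene, whose enzymes also act on this molecule, taken singly. Pfkfb1, Pfkfb2, Pfkfb3 and Pfkfb4 had means of 4.94, 2.91, 2.17 and 1.06 TPM, and Tigar was not compared with their sum. Among regulators, the hypoxia factor gene Hif1a was at 14.6 ± 2.79 TPM and Epas1 at 0.72 ± 0.22.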

How the data were processed

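Gene tables of 3 RNA-seq libraries were used. The authors estimated counts per Ensembl gene, and the deposited tables hold each expected count and TPM, with the transcript length behind them, per the file headers. TPM was used as the authors deposited it, and its column stands beside an effective length, per the file headers. The submitters' processing notes name STAR, RSEM and mm10, with no role or version. The annotation release and strand setting are not given in the sources used here. GENCODE vM21 gave names and positions for 55227 of 55487 IDs. Files of the 7 other samples were not used here.

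CPM was computed over all genes. Expected counts were rounded for edgeR 4.0.16 (R 4.3.3), whose goodness-of-fit test used filterByExpr, TMM factors, a trended dispersion and an intercept, with Benjamini-Hochberg adjustment over 12577 genes. Its script was tested on simulated data. DESeq2 1.42.0 gave alternative size factors. Isoenzyme differences used log2(TPM + 1), which understates changes of low genes, and exact two-sided sign-flip permutation tests. A count of 0 allows up to 3 counts, which covers counting error only. Copies were found with BLAST+ 2.17.0. The 45 genes, the wider list and the marker lists were chosen with earlier results of these data known. The rule for named genes took all members, wider-list genes and markers and the 5 copies with most counts. Snhg14 was named after its values were seen. Some genes of the wider list are not reported here by name.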

Additional observations from a re-analysis of the deposited data

How the results depend on the processing

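Across 41 results and 260 alternatives, 241 kept what was asked of their kind: the direction and side of the threshold for a tested difference, a value within the replicate SD for an untested one, or a count within 1.5 times. For the sign-flip tests the side of the threshold was fixed in advance, because their p cannot reach 0.05 with so few replicates. Only the direction of those differences could change, and not in every alternative, so keeping the side says nothing about them. Where the same isoenzyme was higher in every replicate, leaving out a replicate could not reverse the difference. Nor could adding 0.1 in place of 1 to TPM, or rescaling TPM. An untested share could not move beyond its SD when a replicate was left out. Many of the 241 kept alternatives therefore could not have failed. Tested differences could still change in size, as Ldha minus Ldhb did from 0.13 to 1.52 in log2 units with CPM. Direction was reversed for Pdk4 minus Pdk2 without replicate 3, at -0.0295 in log2(TPM + 1), and leaving out each replicate gave -0.0295 to 0.14. The other 22 of 23 isoenzyme differences kept their direction in every alternative run, though many of these runs could not reverse it. Leading shares moved beyond their SD when CPM replaced TPM, to 86.1% for hexokinase, 81.6% for phosphofructokinase, 99.9% for phosphoglycerate mutase, 97.2% for enolase, 74.1% for lactate dehydrogenase, 61.4% for NADP isocitrate dehydrogenase and 62.2% for malate dehydrogenase. Chosen after seeing the data, the longest transcript length gave 82.7% for hexokinase, 64.9% for phosphofructokinase, 99.1% for aldolase, 97.1% for enolase, 67.3% for lactate dehydrogenase, 48.5% for pyruvate dehydrogenase kinase, 55.5% for malate dehydrogenase and 63.1% for succinyl-CoA ligase. These follow from the length by which counts are divided. Adding near-identical copies gave 98.5% for enolase and, chosen after seeing the data, 468 TPM for Eno1 and 1058 TPM for Gapdh. The number of members of at least 1 TPM was 39 without each replicate in turn, 43 by CPM, and 36 at a minimum of 5 TPM. It was 43 with TPM rescaled without genes of effective length under 100 nucleotides. The goodness-of-fit test called 232 genes in all and 231 to 289 with other size factors or no filter, but 63 to 93 without each replicate in turn, and 0 members throughout. With 2 replicates the smallest p is 0.50. No paired analysis was possible because the RNA-seq libraries form 1 group. Depth limits the genes with few counts, and the floor was 3 counts for every gene. Pgk2 lay under it with 0 counts in each library, and Pgam2 lay near it with 4, 5 and 3.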
